A study of Mus musculus with 11 samples.

Results

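The S100 genes encode small calcium-binding proteins, and 9 of them were followed here in the tibialis anterior (TA) muscle of healthy, dystrophic and treated mice: S100a1, S100a4, S100a6, S100a8, S100a9, S100a10, S100a11, S100a13 and S100b. A member was the probe set whose symbol in the deposited mRNA table equalled one of these names, and S100a11, which had 2 probe sets, was represented by the one of higher signal. The 9 members stood among 21759 gene symbols and 28350 probe sets. Of the 9, 6 reached a mean signal of 30 in at least 1 group and were tested among 14494 probe sets, while S100a8, S100a9 and S100b stayed below that signal in every group.

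RNA was taken from cryosections of the mid-belly of the muscle and hybridised to Affymetrix Mouse Gene ST 1.1 arrays, with 1 array for each of 11 male mice aged 14 weeks. The C57 group was 3 wild-type mice of strain C57/B10 with no treatment. The mdx group was 4 untreated mice of the mdx line, which carries a premature stop in the dystrophin gene Dmd on the C57/B10 background and lacks dystrophin in its muscle fibres. The treated group was 4 mdx mice (T1 to T4) given 12.5 mg/kg of Pip6e-PMO once, by injection into a tail vein at age 12 weeks, 2 weeks before sampling. Pip6e-PMO is an antisense morpholino oligomer joined to a cell-penetrating peptide, and it makes the splicing machinery skip the mutated Dmd exon. No group of mdx mice received saline or the peptide with an inactive oligomer, so injection and exon skipping cannot be told apart here. The mdx mouse is an inbred model in which fibres degenerate and regenerate, and its muscle disease is milder than that of patients.

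S100 proteins are small EF-hand proteins that mostly act as pairs, and calcium binding opens a surface through which they hold other proteins. Inside cells they bind annexins, cytoskeletal proteins and calcium channels or pumps, and several leave the cell and act on receptors such as RAGE (the product of Ager) and TLR4. In skeletal muscle S100a1 belongs to the fibre itself, where it binds the ryanodine receptor and the SERCA pump. S100a4 and S100a6 are known from fibroblasts, macrophages and other mononuclear cells, S100a8 and S100a9 from neutrophils and monocytes, and S100b from Schwann cells, fat cells and some myoblasts.

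Most S100 genes lie side by side, and the DNA before the start sites of the 4 members that rose in mdx muscle is shown here because neighbouring genes differed in how far they rose. S100a1 is shown with S100a13, since it starts from the same stretch in the other direction. The reference promoter table (RefSeq, build GRCm38.p6) held a window for 8 of the 9 members. S100a10 had none there. The sequences run 5′ to 3′ along the plus strand, which is the coding strand of S100a4, S100a6, S100a11 and S100a13. Capitals mark every match to 4 short motifs, searched on both strands. The TATA box was searched as TATAAA. The CCAAT box was searched by the letters of its name. The GC box was searched as GGGCGG, and the AP-1 site as TGANTCA. The first line is the 250 bases before S100a4 (chr3:90603520-90603769), and the second is the same length before S100a6 (chr3:90612644-90612893). The third is the same length before S100a11 (chr3:93520246-93520495). The fourth is the 104 bases that separate the start of S100a1, read towards the left, from the start of S100a13, read towards the right (chr3:90514331-90514434).
S100a4: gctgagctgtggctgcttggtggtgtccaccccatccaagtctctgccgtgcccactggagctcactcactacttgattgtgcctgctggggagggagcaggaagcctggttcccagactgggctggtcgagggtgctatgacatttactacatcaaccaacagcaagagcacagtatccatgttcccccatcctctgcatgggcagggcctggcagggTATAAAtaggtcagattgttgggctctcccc
S100a6: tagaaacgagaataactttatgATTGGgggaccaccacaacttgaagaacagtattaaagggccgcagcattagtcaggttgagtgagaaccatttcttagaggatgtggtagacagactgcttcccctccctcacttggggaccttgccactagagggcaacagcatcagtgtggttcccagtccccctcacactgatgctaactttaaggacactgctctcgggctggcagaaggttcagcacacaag
S100a11: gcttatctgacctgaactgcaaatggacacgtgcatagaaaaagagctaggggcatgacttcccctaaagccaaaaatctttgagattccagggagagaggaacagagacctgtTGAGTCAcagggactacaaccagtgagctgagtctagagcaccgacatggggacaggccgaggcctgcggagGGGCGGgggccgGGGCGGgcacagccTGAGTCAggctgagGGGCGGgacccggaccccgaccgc
S100a1 and S100a13: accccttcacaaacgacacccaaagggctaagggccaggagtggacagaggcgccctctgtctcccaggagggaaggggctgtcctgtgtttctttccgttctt

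The S100a4 window held a TATA box that began 31 bases before the start site. In the S100a6 window the capitals are a CCAAT box on the minus strand, with its first printed base 228 bases before the start. The S100a11 window held 3 GC boxes and 2 AP-1 matches, and the shared S100a1 and S100a13 window held none of the 4 motifs. Among 32851 promoter windows of 250 bases, 12.4% held the TATA letters on either strand, 33.8% held CCAAT, 32.7% held the GC box and 6.75% held the AP-1 letters. A match is only a run of letters, and no factor binding was measured.

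Values are robust multi-array (RMA) signal intensities, given as log2 unless said otherwise, so that a difference of 1 is a doubling. The median intensity per array was 27.5 to 28.6, and 48.2% to 49.2% of probe sets reached a signal of 30. Dmd gave 5.82 ± 0.05 (SD, n = 3) in C57, 5.28 ± 0.50 (n = 4) in mdx and 5.80 ± 0.37 (n = 4) in treated mice, with no call between groups. The difference was -0.55 in mdx against C57 and 0.53 in treated against mdx mice. With no call, this level does not check the labels. The fast-fibre markers Acta1, Ckm, Myh4, Tnnt3, Mylpf and Pvalb were all above the minimum signal, with a summed intensity of 44700 to 45400 in the C57 group, 45100 to 46900 in the mdx group and 44000 to 45300 in the treated group.

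Which S100 genes followed the loss of dystrophin was asked by setting mdx against C57 muscle. S100a4 rose most among the members, 5.95-fold, and S100a6, S100a11 and S100a13 rose 1.85-fold, 1.69-fold and 1.60-fold. In all, 4 of the 6 tested members were called higher and 0 lower at an adjusted p under 0.05 (limma's moderated test, Benjamini-Hochberg over all 14494 probe sets), where 7.06% of all tested probe sets were called higher and 4.96% lower. Every mdx mouse stood above every C57 mouse in 6 of 6 tested members, and 13.1% of all tested probe sets had that order. The median difference was 0.72 over the 6 members and -0.01 over all tested probe sets. These are levels in whole tissue, in which more cells of a type and more RNA per cell cannot be told apart.

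**Figure D1:**
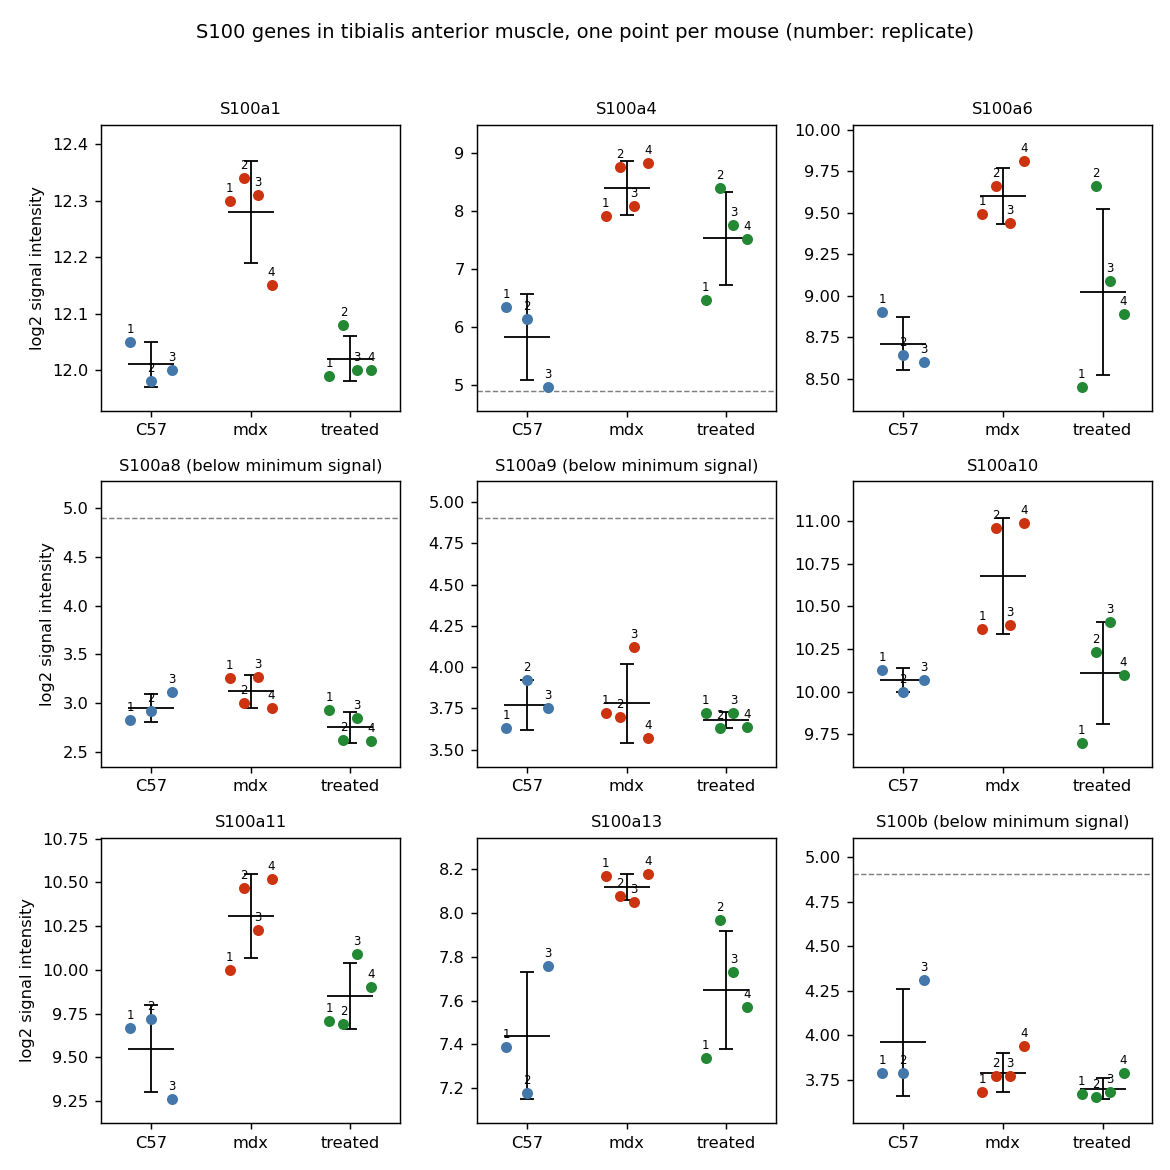
log2 signal intensity (y axis, a separate scale in each panel) of the 9 S100 genes in C57 (blue), mdx (red) and treated mdx (green) muscle, with a point and replicate number per mouse and bars for the mean ± SD. In the 6 tested genes every red point lies above every blue point, while S100a8, S100a9 and S100b lie under the dashed line at a signal of 30.

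S100a4, also called fibroblast-specific protein or metastasin, binds non-muscle myosin and is made by many motile cells. Its signal was 6.35, 6.13 and 4.97 in the 3 C57 mice. In the mdx mice it was 7.91, 8.75, 8.08 and 8.82. The groups were far apart, and C57 mouse 3 sat just over the log2 equivalent of the minimum signal. The difference was 2.57 (SE 0.43, limma adjusted p = 0.0024), and it ran from 2.15 to 2.84 when each mouse was left out in turn, with the call kept each time.

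S100a6, or calcyclin, binds annexins and the ubiquitin-ligase adaptor CacyBP and is known from proliferating cells. It read 8.90, 8.64 and 8.60 in C57 and 9.49, 9.66, 9.44 and 9.81 in mdx mice. Both groups were tight, and a gap separated them. The difference of 0.89 (SE 0.22, limma adjusted p = 0.021) lost its call without C57 mouse 2 (0.85, adjusted p = 0.083), without C57 mouse 3 (0.83, adjusted p = 0.0821), without mdx mouse 2 (0.87, adjusted p = 0.0533) or without mdx mouse 4 (0.82, adjusted p = 0.0539).

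S100a10 and S100a11, like S100a6, bind annexins. S100a11 is a partner of annexins A1 and A2 in membrane repair. Its signals were 9.67, 9.72 and 9.26 in C57 and 10.00, 10.47, 10.23 and 10.52 in mdx mice, and C57 mouse 3 was the lowest of the 11. The rise of 0.76 (SE 0.16, limma adjusted p = 0.00845) kept its call without any one mouse, with adjusted p up to 0.0445. The 2 probe sets of S100a11 tracked each other (r = 0.993 over 11 mice, never over 0.10 log2 apart). Both carry probes of the mixed cross-hybridisation class in the deposited annotation, unlike the other 8 members, and the brighter one is placed on another chromosome, so the signals of S100a11 and of a near copy cannot be told apart.

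S100a10, or p11, pairs with annexin A2 and carries ion channels to the membrane. It is an exception among S100 proteins, since its calcium sites are locked and it no longer needs calcium. Signals were 10.13, 10.00 and 10.07 in C57 and 10.37, 10.96, 10.39 and 10.99 in mdx mice. The mdx mice fell into a low pair (1 and 3) and a high pair (2 and 4), all above C57. The difference of 0.61 (SE 0.19, limma adjusted p = 0.0574) did not pass the threshold. It passed without mdx mouse 1 (0.71, adjusted p = 0.041), without mdx mouse 3 (0.71, adjusted p = 0.0469) and without T1 (0.61, adjusted p = 0.0347).

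S100a13 helps release FGF1 and interleukin 1 alpha from cells, proteins that lack a signal peptide. It gave 7.39, 7.18 and 7.76 in C57 and 8.17, 8.08, 8.05 and 8.18 in mdx mice. The mdx mice lay close together (8.12 ± 0.06, SD, n = 4) and the C57 mice farther apart (7.44 ± 0.29, SD, n = 3). The difference was 0.68 (SE 0.16, limma adjusted p = 0.0145), and without C57 mouse 2 it was 0.55 (adjusted p = 0.0818).

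S100a1 is the fibre's own member. It gave 12.05, 11.98 and 12.00 in C57 and 12.30, 12.34, 12.31 and 12.15 in mdx mice. The groups did not overlap, yet the difference was the smallest of the 6 tested members, 0.27 (SE 0.08, 95% interval 0.08 to 0.45), and did not pass (limma adjusted p = 0.0588). It passed without mdx mouse 4 (0.31, adjusted p = 0.045) and without T2 (0.27, adjusted p = 0.0429).

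The calprotectin genes S100a8 and S100a9, whose products form the antimicrobial complex of neutrophils and activate TLR4, were under the minimum signal. S100a8 read 2.83, 2.92 and 3.11 in C57, 3.26, 3.00, 3.27 and 2.95 in mdx, and 2.93, 2.62, 2.85 and 2.61 in treated mice. S100a9 read 3.63, 3.92 and 3.75 in C57, 3.72, 3.70, 4.12 and 3.57 in mdx, and 3.72, 3.63, 3.72 and 3.64 in treated mice. For both, C57 and mdx mice overlapped. S100b, a dimer known from glia, read 3.79, 3.79 and 4.31 in C57, 3.68, 3.77, 3.77 and 3.94 in mdx, and 3.67, 3.65, 3.68 and 3.79 in treated mice. C57 mouse 3 was the highest of these. Signals this low were left out of the main test. With no minimum signal, none of the 3 genes passed in any comparison, and S100a8 in treated against mdx came nearest (-0.37, limma adjusted p = 0.0722).

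The methods' t-test between mdx and C57 passed all 6 members on log2 signals and 5 on linear signals at an unadjusted level of 0.05. After Benjamini-Hochberg adjustment it kept 2 and 1 of them. On log2 signals S100a11 (adjusted p = 0.0881) and S100a13 (adjusted p = 0.070) lost the call, and on linear signals S100a4 (adjusted p = 0.0831), S100a11 (adjusted p = 0.106) and S100a13 (adjusted p = 0.0629) did.

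What Pip6e-PMO did to the family in mdx muscle was asked by setting treated against untreated mdx mice, the same mdx mice as above. All 6 tested members had a lower mean in treated mice, by 0.26 to 0.86, and 0 of the 6 passed the adjusted threshold (limma), where 3.88% of all tested probe sets were called lower and 7.26% higher. At an unadjusted level of 0.05, 5 of the 6 passed in limma, and the methods' t-test called 0 on log2 and 0 on linear signals, with 4 and 3 of the 6 at that unadjusted level. The members' median difference was -0.52, and that of all tested probe sets was 0.02. The treated mice were all below the mdx mice for S100a1 and S100a13 (2 of 6 members, against 6.69% of all tested probe sets).

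**Figure D2:**
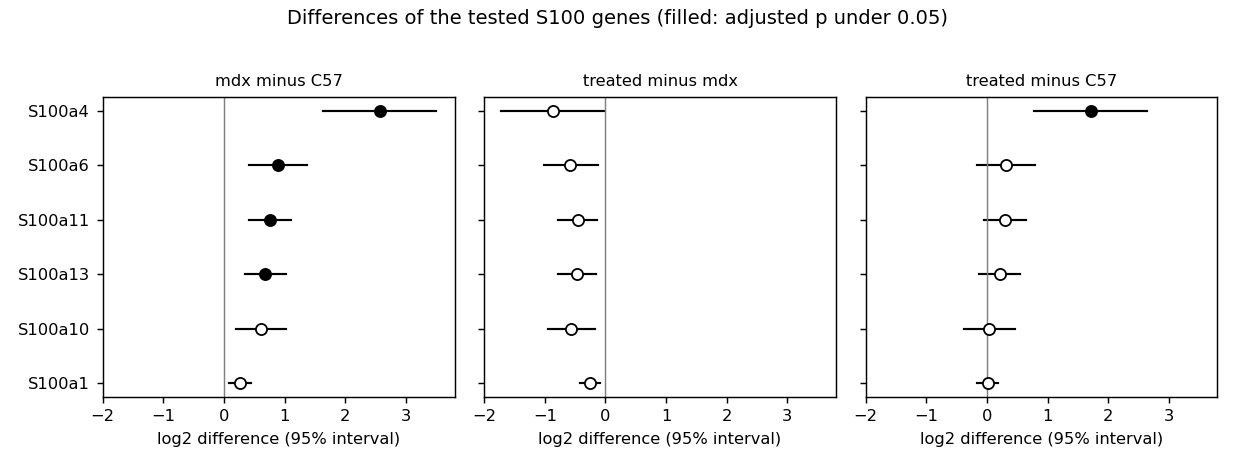
Differences in log2 signal (x axis) for the 6 tested S100 genes in the 3 comparisons, with points for the estimate, lines for the 95% interval and filled points for an adjusted p under 0.05. On the left 4 points are filled, in the middle none is, and on the right S100a4 is the filled point.

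Among the treated mice, S100a1 read 11.99, 12.08, 12.00 and 12.00 in T1 to T4, all below the lowest mdx mouse at 12.15. The difference was -0.26 (SE 0.08, limma adjusted p = 0.0507), and -0.16 (adjusted p = 0.152) when quantile normalization was repeated on the deposited values. S100a13 read 7.34, 7.97, 7.73 and 7.57, so that T2 came close to the mdx mice and T1 to C57. Its difference was -0.47 (SE 0.15, limma adjusted p = 0.0574).

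S100a4 was the most uneven member after treatment. Its signal was 6.46, 8.39, 7.75 and 7.52 in T1 to T4, and T1 lay near the C57 mice while T2 lay inside the mdx range. The difference was -0.86 (SE 0.40, 95% interval -1.72 to 0.00, limma adjusted p = 0.159). S100a6 followed the same order of mice, with 8.45, 9.66, 9.09 and 8.89, a difference of -0.58 (SE 0.20, limma adjusted p = 0.0816).

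S100a10 and S100a11 differed from that order. S100a10 read 9.70, 10.23, 10.41 and 10.10, with T3 highest, and its difference was -0.57 (SE 0.18, limma adjusted p = 0.0572). S100a11 read 9.71, 9.69, 10.09 and 9.90, with T2 lowest and T3 highest, and its difference was -0.46 (SE 0.15, limma adjusted p = 0.0623). The other S100a11 probe set gave -0.49 and passed (limma adjusted p = 0.040).

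The count depended on which mice entered the fit. Without T2, 5 of the 6 members were called lower in treated muscle, and the share of all probe sets called in the refits is not given. S100a4 then differed by -1.15 (limma adjusted p = 0.0427), S100a6 by -0.79 (adjusted p = 0.00561) and S100a13 by -0.57 (adjusted p = 0.0124). S100a10 differed by -0.61 (adjusted p = 0.0359) and S100a1 by -0.28 (adjusted p = 0.0243), while S100a11 at -0.41 (adjusted p = 0.0713) was not called. Leaving out T1 moved the values the other way, to -0.50 for S100a4 (limma adjusted p = 0.40), -0.39 for S100a6 (adjusted p = 0.20), -0.36 for S100a13 (adjusted p = 0.149) and -0.43 for S100a10 (adjusted p = 0.147). Without mdx mouse 1 the count was 2, without C57 mouse 3 it was 1, and without any other one mouse it was 0.

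What was left of the mdx difference after treatment was asked by setting treated mdx against C57 mice, groups that also enter the comparisons above. S100a4 was the one member called higher (1 of 6, where 15.6% of all tested probe sets were called higher), at 3.28-fold, a difference of 1.71 (SE 0.43, limma adjusted p = 0.0144). Its signal was 4.97 to 6.35 in C57 and 6.46 to 8.39 in treated mice. Without C57 mouse 3 the difference was 1.29 (adjusted p = 0.0722). The other 5 differed from C57 by 0.01 to 0.31, and S100a1 and S100a10 were nearest, at 0.01 (95% interval -0.17 to 0.19) and 0.04 (-0.37 to 0.46). For S100a6 the interval ran from -0.17 to 0.79, for S100a11 from -0.05 to 0.64 and for S100a13 from -0.13 to 0.55, so each of these 3 intervals holds 0. Their size leaned on single mice: S100a6 at 0.31 was 0.10 without T2 and 0.50 without T1, S100a11 at 0.30 was 0.15 without C57 mouse 3, and S100a13 at 0.21 was 0.08 without C57 mouse 2 and 0.37 without C57 mouse 3. With array weights S100a13 (0.36, adjusted p = 0.0213) and S100a11 (0.33, adjusted p = 0.0494) were called.

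How far each treated mouse stood on the way from the mdx mean back to the C57 mean was described for the 4 members called in mdx muscle, without a test, since the mdx mice enter both terms. Over the 4 treated mice the share was 33.4% for S100a4, 65.1% for S100a6, 60.6% for S100a11 and 69.1% for S100a13, with a median of 62.9%. S100a4, the member with the widest mdx difference, had the lowest share. The share is divided by that difference. In log2 the treated minus mdx difference of S100a4, -0.86, was the largest of the 6 tested members, though not called.

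By mouse, the median over the 4 members was 97.0% in T1, 11.1% in T2, 43.0% in T3 and 66.9% in T4 (SD 36.4, n = 4). T1 was the furthest back for 3 of the 4 members and T2 the least for 3. S100a11 broke the pattern, with 81.5% in T2, its highest share, and 28.5% in T3, its lowest. For S100a4 T2 stood at 0.00% and T1 at 75.0%, and for S100a6 T1 went past the C57 mean to 130%.

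**Figure D3:**
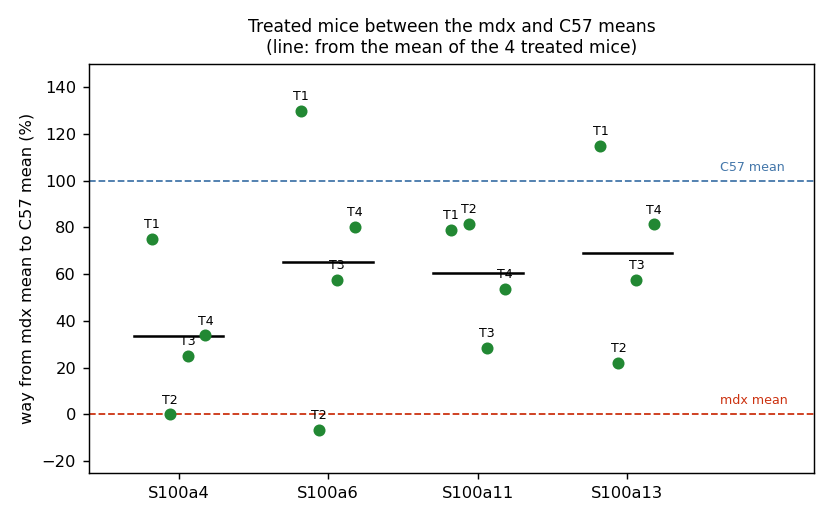
Position of each treated mouse (T1 to T4, green points) between the mdx mean (0%, red dashed line) and the C57 mean (100%, blue dashed line) for the 4 S100 genes called in mdx muscle, with a black line for the share from the mean of the 4 mice. T2 is lowest for S100a4, S100a6 and S100a13 and highest for S100a11.

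The family has a cluster on chromosome 3. In the deposited table, whose build is not named, 14 S100 genes had a probe set there, 8 of them members, and S100b was elsewhere. S100a1 (90314956 to 90318314, minus strand) and S100a13 (90318357 to 90328505, plus strand) open the cluster back to back. S100a4 (90407689 to 90409967) and S100a6 (90416816 to 90418337) follow on the plus strand, and S100a11 (93324417 to 93330210) and S100a10 (93359039 to 93368567) lie farther along.

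The mdx response did not run evenly along the cluster. Between S100a4 at 2.57 and S100a6 at 0.89 lies S100a5, which was below the minimum signal in every group, as were S100a2 and S100a3 on the other side of S100a4. The back-to-back pair gave 0.27 for S100a1 and 0.68 for S100a13. Of the 14 genes, 7 were tested, and the 7 below the minimum lay among them rather than at one end.

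**Figure D4:**
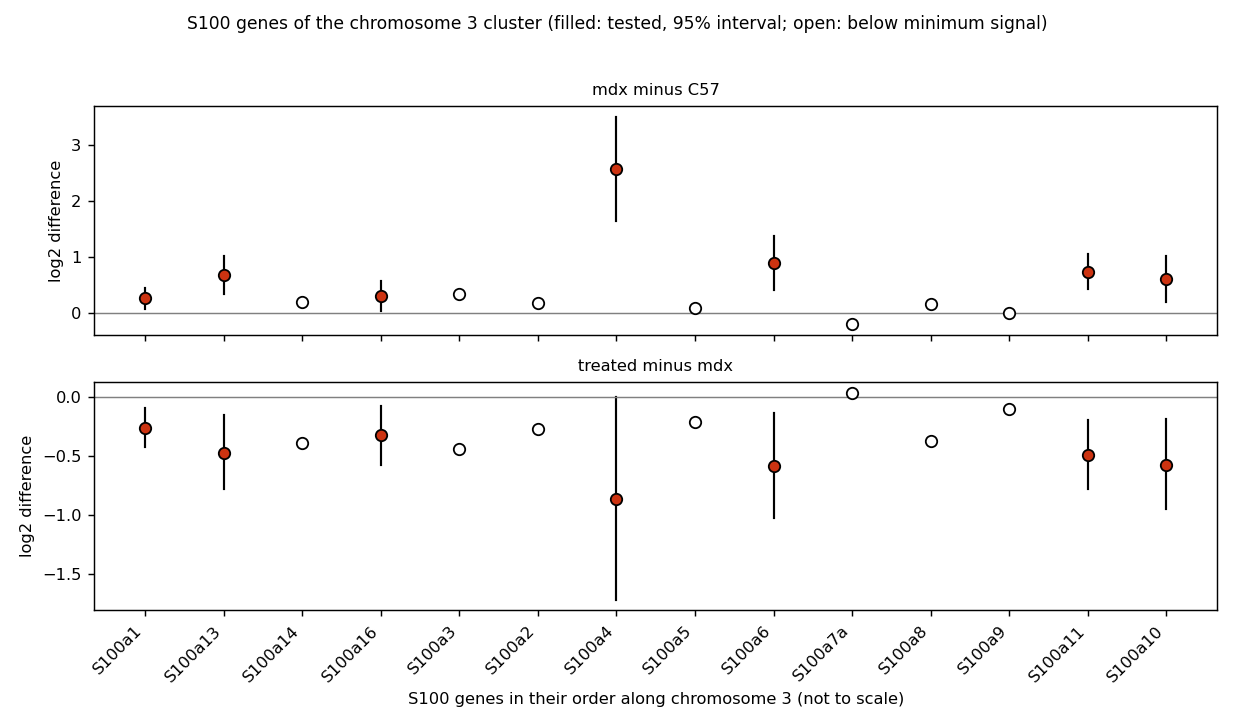
log2 difference (y axis) of mdx minus C57 (top) and treated minus mdx (bottom) for the 14 S100 genes of chromosome 3 in their order along it, with filled points and 95% intervals for tested probe sets and open points for those below the minimum signal. S100a11 is drawn from its probe set placed on chromosome 3 (0.74 and -0.49), not from the brighter one that represents it in the tests. S100a4 stands out in the top panel between neighbours of low signal, and in the bottom panel all 7 filled points lie below 0.

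Outside the 9 members the table held 8 more S100 genes, and S100a16, a widely made member with a reduced calcium site, was the only one tested. It read 9.83, 9.77 and 9.97 in C57, 10.22, 10.24, 10.04 and 10.16 in mdx, and 9.58, 10.09, 9.97 and 9.74 in treated mice. It too was higher in every mdx than in every C57 mouse, by 0.31 (SE 0.12, limma adjusted p = 0.139), and lower by 0.32 after treatment (adjusted p = 0.0833), without passing either test. S100a2, S100a3, S100a5, S100a7a, S100a14, S100g and S100z were below the minimum.

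The genes that S100 proteins work with were read from a list of 25 receptors, adaptors and binding partners, of which 21 were tested. In mdx muscle 7 of the 21 rose and 0 fell, with a median of 0.16, where 7.06% of all tested probe sets were called higher. After treatment 3 of the 21 rose and 0 fell against untreated mdx, with a median of 0.00, where 7.26% of all were called higher. Against C57, 6 were higher in treated muscle and 0 lower, where 15.6% of all were called higher. The share of all called lower in that comparison is not given here.

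On the receptor side, Ager (RAGE) and Tlr4, the classical receptors, were below the minimum signal in all groups. The TLR4 co-receptors Ly96 (MD-2) and Cd14 rose by 0.98 (SE 0.29, limma adjusted p = 0.0471) and 0.81 (SE 0.22, adjusted p = 0.0332) in mdx muscle. The adaptor Myd88 rose by 0.84 (SE 0.18, adjusted p = 0.0086). After treatment these 3 differed from mdx by -0.71, -0.47 and -0.55 and did not pass (adjusted p = 0.0983, 0.144 and 0.0511). Cd36, a scavenger receptor and fatty acid carrier that binds the S100a8 and S100a9 complex, was not called in mdx (-0.28) and rose by 0.98 (SE 0.24, adjusted p = 0.0291) after treatment. Bsg (basigin) was not called in any comparison.

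Of the annexins and their scaffold, Anxa2, the partner of S100a10, rose by 0.89 (SE 0.16, limma adjusted p = 0.00444) in mdx muscle. Anxa5 rose by 0.83 (SE 0.13, adjusted p = 0.0013), and Ahnak, the large scaffold bound by annexin A2 and S100a10, by 0.37 (SE 0.11, adjusted p = 0.0427). After treatment Anxa2 and Anxa5 each differed from mdx by -0.33, and neither passed. Ahnak (0.23) and Anxa1 (0.45) differed in the other direction and did not pass either (limma adjusted p = 0.143 and 0.138). The median of the list after treatment was 0.12. Against C57, Anxa1 (1.15), Anxa2 (0.56), Anxa5 (0.50) and Ahnak (0.60) were called higher in treated muscle. Anxa6 and Anxa11 were not called in any comparison.

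Of the S100a1 partners in the fibre, Atp2a2, the slow-type SERCA pump, rose by 0.76 (SE 0.10, limma adjusted p = 4.1e-04) in mdx muscle and differed by 0.03 after treatment. The fast-type pump Atp2a1, the ryanodine receptor Ryr1 and titin (Ttn) differed by -0.01, -0.26 and 0.04 in mdx, with no call. Fgf1, the cargo of S100a13, was not called in mdx (-0.16) and rose by 0.65 (SE 0.17, adjusted p = 0.0339) after treatment, while Il1a and Syt1 were below the minimum. Among the intracellular partners, Sugt1, a co-chaperone bound by S100a6, rose by 0.60 (SE 0.14, adjusted p = 0.0261) after treatment, and Cacybp, Myh9, Trp53 and Dysf were not called.

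The partner counts also leaned on single mice. In mdx against C57 the count was 4 without C57 mouse 2, mdx mouse 4 or T3. In treated against mdx it was 0 without mdx mouse 3, mdx mouse 4, T1, T3 or T4, and 5 without T2. The shares over all probe sets in these refits are not given.

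**Figure D5:**
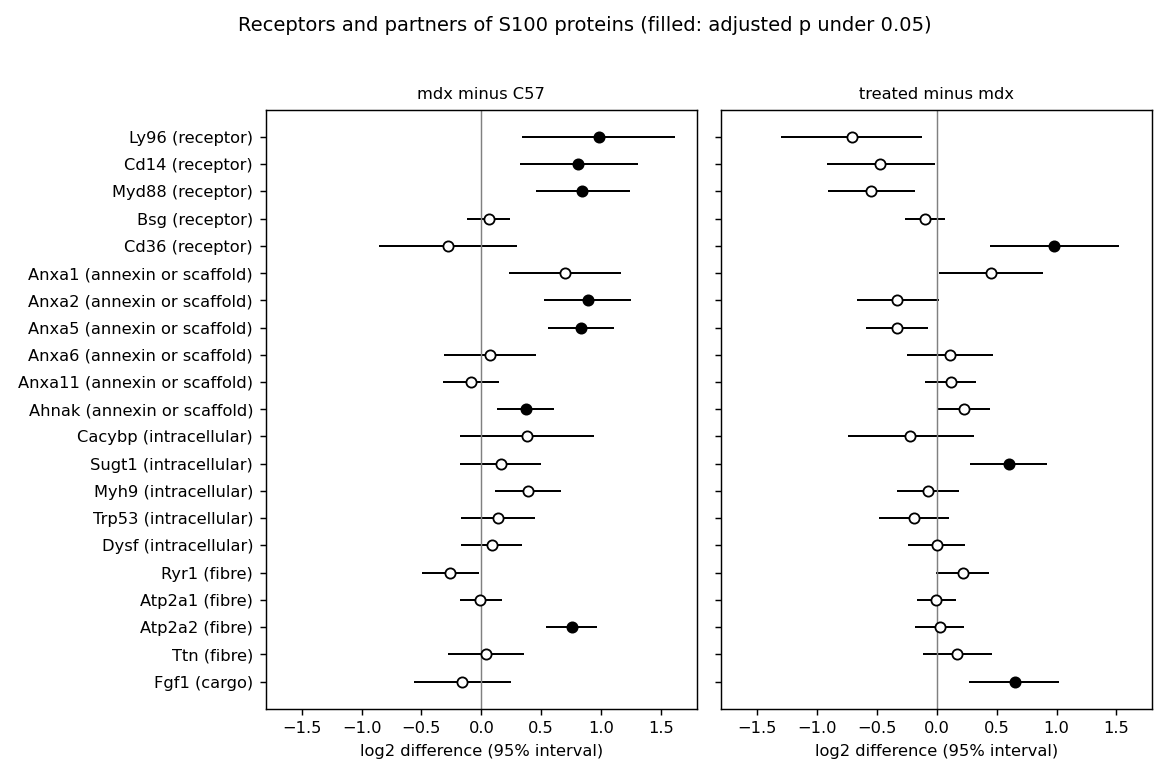
log2 differences with 95% intervals (x axis) of the 21 tested receptor and partner genes of S100 proteins, mdx minus C57 on the left and treated minus mdx on the right, filled for an adjusted p under 0.05. On the left 7 points are filled, all to the right of 0, and on the right Cd36, Sugt1 and Fgf1 are filled.

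Markers of some other cell types also differed between the groups, and their part in the member differences was not tested. Across all tested probe sets, 7.06% were called higher and 4.96% lower in mdx against C57. In treated against mdx these shares were 7.26% and 3.88%. Of the macrophage and monocyte markers, 6 of 8 tested rose in mdx muscle (Emr1, Cd68, Csf1r, Lyz2, C1qa and Fcgr1), and Ccr2 was below the minimum. Their summed intensity was 3550 to 3830 in the C57 group, 5550 to 7090 in the mdx group and 3800 to 5450 in the treated group. Among treated mice it was 3800 in T1, 5450 in T2, 4330 in T3 and 4180 in T4. T1 was lowest and T2 highest, as for S100a1, S100a4, S100a6 and S100a13 but not for S100a10 or S100a11. Ly6c2, whose probes are of the mixed cross-hybridisation class and which was not called in mdx, made up 61.5% to 70.0% of the sum in C57 mice and 41.5% to 44.1% in treated mice. Without it, left out after its values were seen, the sum was 2190 in T1, 3090 in T2, 2420 in T3 and 2440 in T4. On that sum the C57 mice had 1090 to 1470 and the mdx mice 2810 to 4370, so T1 was above the C57 range. Lyz2 hardly varied among treated mice (10.25, 10.32, 10.32 and 10.34). After treatment Cd68 (-1.04) and Ly6c2 (-0.47) fell and Mrc1 (0.49) rose against mdx. Against C57, 5 of the 8 tested markers were called higher in treated muscle, where 15.6% of all tested probe sets were. Ly6c2 was called lower, and the list median was 0.79.

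Fibroblast markers were less uniform: Col3a1 and Lum rose in mdx, 2 of 6 tested, and none was called between treated and mdx mice. Against C57, Pdgfra, Dcn, Col3a1 and Lum (4 of 6) were called higher in treated muscle, where 15.6% of all tested probe sets were. The list median was 0.86. The fibroblast markers summed to 3740 to 4990 in the C57 group, 5470 to 6720 in the mdx group and 5370 to 8370 in the treated group. T2 had the highest of these sums (8370) and T1 the lowest among treated mice (5370). Of the regenerating-fibre markers, Myh3, Myh8, Myog and Ncam1 rose in mdx, 4 of 5, and the sums were 564 to 745, 933 to 1370 and 618 to 1080 in the 3 groups. Myod1, the brightest of them, was not called (mean intensity 450 in C57, 610 in mdx and 471 in treated mice).

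Beside the low S100a8 and S100a9 signals, 8 of 12 neutrophil markers were below the minimum: Ly6g, Ngp, Camp, Ltf, Elane, Mpo, Mmp8 and Cxcr2. Of the 4 tested, Retnlg and Csf3r rose in mdx, and Retnlg, Lcn2 and Csf3r fell after treatment. Retnlg and Csf3r reached the minimum in mdx mice alone (mean intensity 37.7 and 37.0), so they entered the test through the group where they were high. The list summed to 221 to 287 in the C57 group, 256 to 557 in the mdx group and 184 to 219 in the treated group. Among treated mice T1 was lowest and T2 highest here too. Beside the low S100b signal, the Schwann cell markers Mbp and Sox10 fell in mdx (2 of 4 tested), while Mag and Prx were below the minimum. Sox10 reached the minimum in C57 mice alone (mean intensity 37.8). The Schwann cell sums were 1150 to 1450, 1070 to 1470 and 1080 to 1200 in the 3 groups, which overlapped. Most of each sum was Pmp22, which was not called (mean intensity 1070 in C57, 1080 in mdx and 997 in treated mice).

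Fat cell markers were not called in mdx (0 of 6 tested), and 5 of 6 fell after treatment (Adipoq, Plin1, Cidec, Cfd and Retn), with Lep below the minimum. Their sums were 1380 to 1830 in the C57 group, 1200 to 2140 in the mdx group and 1180 to 1330 in the treated group. Fabp4, the brightest of the list, was not called (mean intensity 763 in mdx and 917 in treated mice). Red blood cell markers were not called in any comparison (0 of 4 tested), with sums of 7720 to 12200, 8100 to 11400 and 7500 to 8740. The fast-fibre list likewise had 0 of 6 called.

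The members resembled each other over the 11 mice to different degrees. For the 15 pairs of tested members, Pearson's r of log2 signals was 0.59 to 0.90, with a median of 0.75. Group differences enter these values, so r was also taken on deviations from the group means, where it was -0.35 to 0.86 with a median of 0.23. S100a4 and S100a6 were the closest pair on both scales (0.90 and 0.86), and S100a11 and S100a13 the farthest apart (0.59 and -0.35). These are descriptions over 11 arrays that share 3 groups and 1 normalization.

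Among 11834 genes outside the family, those most like each member over the 11 mice were picked by the highest r. For S100a4 they were Fn1 (fibronectin, r = 0.978), Apbb1ip (0.977) and Srgap3 (0.976), and r on deviations from group means was 0.91, 0.95 and 0.95. Those deviations also enter the r that picked the genes, so high values on them are no separate check. For S100a6 they were Carhsp1 (0.971), Dap (0.965) and Athl1 (now Pgghg, 0.964). For S100a1 they were the lysosomal protease gene Ctsb (0.967), Capns1, the small calpain subunit (0.957), and Ifi35 (0.951).

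For S100a10 the list was Rabl5 (now Ift22, 0.968), the endothelial gene Plvap (0.945) and the fatty acid binding protein gene Fabp5 (0.923). S100a11 was most like Fxyd5 (0.938), the actin-nucleating subunit gene Arpc1b (0.931) and the actin disassembly gene Wdr1 (0.930). S100a13 was most like AI413582 (0.963), Arl6ip5 (0.962) and Mobkl2a (now Mob3a, 0.960). No gene appeared in the lists of more than 1 member. On deviations from group means r was lower for the S100a1 genes (0.80, 0.68 and 0.67) and the S100a11 genes (0.76, 0.80 and 0.84), and it was 0.89 to 0.95 for those of S100a6, S100a10 and S100a13.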

How the data were processed

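Tibialis anterior RNA of 11 mice (3 C57, 4 mdx, 4 treated mdx) was measured on Affymetrix Mouse Gene ST 1.1 arrays. The authors made the deposited signal intensity values in Affymetrix Expression Console by RMA (background correction, a quantile step on a sketch of the probes, summary by median polish), and the table holds linear values per probe set. Such normalization assumes that most transcripts do not shift together, and the number of arrays limits the precision.

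Here the intensities were turned to log2 (Python 3.11.15, pandas 2.3.3). Following the study's methods, probe sets whose mean was below 30 in all 3 groups were dropped (14494 of 28350 remained). One model with a mean per group was fitted over all 11 arrays with limma 3.58.1 in R 4.3.3, with no covariate, and p-values were adjusted by Benjamini-Hochberg over all probe sets tested. Calls needed an adjusted p under 0.05. limma replaced the t-test of the methods, which was run as an alternative. The script was tested on simulated data.

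All 9 members were named, with partner genes called in either main comparison, the 3 genes most like each member, and the markers under the minimum signal. The other genes named among the lists were added for their roles after their values were seen. The Schwann cell and red blood cell marker lists each leave out 1 gene that is not reported here. The members and lists were chosen with earlier results of these data known. Groups came from the sample labels. Each mouse is 1 array. Whether arrays were run in batches is not given in the sources used here. Promoter windows came from RefSeq (GRCm38.p6) and gene positions from the deposited table, whose build is not named. Alternatives covered the test, the prior, array weights, the minimum signal, the normalization, the probe set per gene, the replicate block and each mouse left out.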

Additional observations from a re-analysis of the deposited data

Results flagged for a closer look

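Over 40 combinations of gene and group with 4 mice each, 1 had a mouse that stood apart from the rest of its group by Dixon's criterion. S100a1 in treated muscle was 12.08 in T2, against 11.99 to 12.00 in the other treated mice, so that the gap took 0.889 of the group's range. Chance puts about 1 in 20 such groups past this limit. All 4 values lay below those of the mdx mice.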

How the results depend on the processing

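Across 27 member differences and 423 alternatives, 375 kept their side of the threshold, 14 lost a call, 34 gained one and 0 reversed a call. Uncalled differences could change sign. In treated against C57, S100a1 (0.01) was -0.04 with median-centred arrays, and S100a10 (0.04) was -0.06 without T3. Members called in mdx against C57 numbered 4, and 2 with the methods' t-test on log2 signals, 1 on linear signals, 6 with array weights or a trended and robust prior, and 2 to 5 with each mouse left out. In treated against mdx the count of 0 became 2 with a trended and robust prior, 3 with array weights, 1 each with no minimum signal, a minimum of 100, median-centred arrays or averaged probe sets, and 0 to 5 with each mouse left out. In treated against C57 the count of 1 became 0 with either t-test, 3 with array weights and 0 to 1 with each mouse left out. Partner genes called in mdx numbered 7, and 3 and 1 with the t-test on log2 and linear signals, 4 with only the 2 groups in the fit and 4 to 8 with each mouse left out. After treatment 3 partner genes became 0 with either t-test or with 2 groups, 5 with array weights and 0 to 5 with each mouse left out. Replicate numbers did not pair the mice, since deviations of same-numbered mice correlated at -0.30 to 0.15. With a replicate block the members called were 3, 0 and 1 in the 3 comparisons, S100a6 being lost in mdx (0.87, adjusted p = 0.0505), and the partner genes 5 in mdx and 0 after treatment. The median share of the way back to C57 was 48.7% to 69.5% with each mouse left out and 57.7% to 69.1% under the other settings. The causes of these changes were not tested, and the shares over all probe sets under these settings are not given. With 3 or 4 mice a group, and signals near background for S100a8, S100a9 and S100b, small differences were not detectable.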
